A study of Mus musculus with 102 samples.

Results

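BRG1 and BAF155, 2 subunits of the BAF (mammalian SWI/SNF) chromatin remodelling complex, were mapped by chromatin immunoprecipitation with sequencing (ChIP-seq) in mouse embryonic stem (ES) cells. The members described here are the regions of a deposited region table that list BRG1, BAF155 or both with a log2 enrichment. They number 24789 of 67697 regions (36.6%), of which 5567 list both subunits, 7120 list BRG1 alone and 12102 list BAF155 alone, while 42908 list neither. Every region of the table carries H3K4me1, H3K4me3 or both marks, and 41819 carry H3K4me1 only, 18425 both marks and 7453 H3K4me3 only.

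BRG1 (SMARCA4) is the ATPase that powers nucleosome sliding and eviction by BAF complexes, and BAF155 (SMARCC1) is a core scaffold subunit around which the complex assembles. The ES-cell form of BAF contains both and is known for its part in maintaining pluripotency. H3K4me1 marks enhancers, H3K4me3 marks active or poised promoters, and H3K27ac marks enhancers and promoters in use.

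The study examined which chromatin proteins are found together with H3K4me1 at enhancers and whether they depend on it. The region table comes from 129/Ola ES cells, with no genotype change in the labels, which were grown on feeders and passaged without them before harvest. The labels give 2 BRG1 libraries and 3 BAF155 libraries there, each subunit with its own antibody, and 15 other chromatin or RNA-processing factors were mapped in the same cells. A second source of values is R1 ES cells (strain 129SV, grown on feeders), either with both MLL3 and MLL4, the main enhancer H3K4me1 methyltransferases, made catalytically dead, or wild type.

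The tables give 1 value per factor and region, so the spread between libraries is unknown, the depth is unknown and no difference between antibodies or cell lines could be tested. Intervals in brackets are 95% counting intervals over regions, Wilson for shares and Newcombe for differences. Neighbouring regions are not independent, so these intervals are too narrow as measures of biological error. The listing limit, a log2 enrichment of about 0.585 (1.5-fold), was read from the lowest listed values. A factor that a region does not list may have been under it, left out by another rule or not measured there. The tables hold no expression values, so the cell type was taken from the labels.

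BRG1 and BAF155 were spread differently over the H3K4 classes, although both belong to one complex. Of the regions with BRG1 alone, 60.6% (59.5 to 61.7) carried H3K4me1 only, against 26.2% (25.4 to 27) of the regions with BAF155 alone. Regions with both subunits leaned furthest away from this class, with 18.9% H3K4me1 only, 60.5% both marks and 20.7% H3K4me3 only. Regions with neither were 77.6% H3K4me1 only. The difference of 34.4 points (33.0 to 35.8) between BRG1 alone and BAF155 alone was 19 points after both sets were standardised to one distribution of region widths.

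Seen from the classes, BRG1 was listed at 12.8% of H3K4me1-only regions, 30.02% of regions with both marks and 24.0% of H3K4me3-only regions. BAF155 was listed at 10.1%, 52.5% and 50.7% of the same classes. BRG1 was therefore the more frequent of the pair at H3K4me1-only regions, and BAF155 at regions with H3K4me3. These shares depend on how many regions each antibody brought above the limit.

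**Figure D1:**
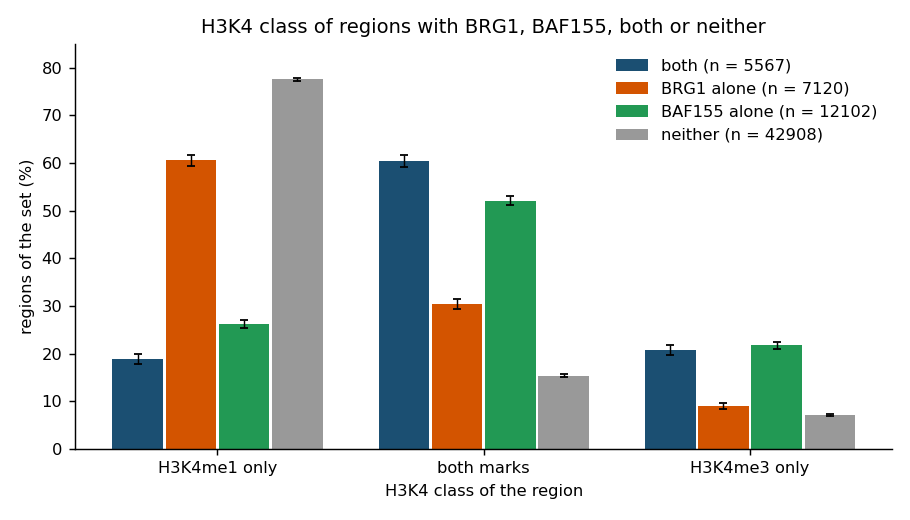
H3K4 class (x axis) of the regions with both subunits, BRG1 alone, BAF155 alone and neither, as the percent of each set (y axis), with 95% Wilson intervals as bars. Regions with BRG1 alone are mostly H3K4me1 only (60.6%), close to the share over all regions (41819 of 67697). Most regions with both subunits (60.5%) carry both marks.

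Of all regions with BRG1, 43.9% (43.0 to 44.7) also listed BAF155, and of all regions with BAF155, 31.5% (30.8 to 32.2) also listed BRG1. The overlap differed by class. Among BRG1 regions, BAF155 was listed at 19.6% of the H3K4me1-only ones, 60.8% of those carrying both marks and 64.3% of the H3K4me3-only ones. BAF155 was listed at 8.70%, 48.9% and 46.4% of the regions without BRG1 in those classes, so it was more frequent where BRG1 was listed in each. The odds ratios were 2.55, 1.62 and 2.08, and with a limit of log2 1 for both subunits they were 5.88, 3.66 and 3.82.

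At the deposited limit the subunits were not each other's closest partners by listing. Across the regions of a class, likeness was measured with phi, the correlation of presence and absence, for all 136 pairs of the 17 factors. BRG1 and BAF155 had a phi of 0.12 at H3K4me1-only regions, 0.11 with both marks and 0.15 with H3K4me3 only. The median pair had 0.17, 0.19 and 0.23. Among the 16 possible partners of BRG1, BAF155 ranked 13, 12 and 10 in the 3 classes, and BRG1 ranked 13 in each class among the partners of BAF155. These ranks depend on the limit. With log2 1 for BRG1 and BAF155 only, their phi was 0.13, 0.26 and 0.24, BAF155 ranked 7, 1 and 3 for BRG1, and BRG1 ranked 3, 2 and 10 for BAF155. With log2 1 for all 17 factors the ranks were 13, 8 and 12 for BAF155, and 8, 11 and 11 for BRG1.

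The closest partners of BRG1 at H3K4me1-only regions were BAZ1A (phi 0.19) and SNF2H (0.18), a subunit and the ATPase of ISWI remodelling complexes, followed by RUVBL2 (0.18), an AAA+ ATPase of the INO80 and TIP60 complexes. For BAF155 they were SAP18 (0.19), a component of a Sin3 histone deacetylase complex, SNF2H (0.19) and RUVBL2 (0.19). At regions with both marks BRG1 was closest to BAZ1A (0.26), PHF5A (0.23), a component of the SF3b splicing complex, and MED12 (0.18), a Mediator kinase module subunit. BAF155 was closest there to RUVBL2 (0.30), SAP18 (0.28) and RUVBL1 (0.28). These named partners depend on the limit too. With log2 1 for all factors, BRG1 was closest at regions with both marks to RUVBL2 (0.30), PHRF1 (0.29) and BAZ1A (0.28). PHF5A and MED12 then ranked 11 and 12. At H3K4me1-only regions the same partners led for each subunit, in another order. With log2 1 for BRG1 and BAF155 only, BAF155 came first for BRG1 at regions with both marks (0.26). SAP18 then ranked 5 for BAF155 at H3K4me1-only regions. All phi values are taken over the same regions and depend on the depth of each antibody. They are descriptions without a test.

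Where a subunit was listed, its enrichment was moderate. BRG1 had a median log2 enrichment of 0.965 at H3K4me1-only regions (highest 2.40), 1.10 at regions with both marks (highest 2.47) and 1.05 at H3K4me3-only regions. BAF155 had medians of 0.860, 0.999 and 1.07. Of all listed values 44.1% of BRG1 and 53.4% of BAF155 lay below a log2 of 1, and only 31 BRG1 and 33 BAF155 values reached 2. Many members therefore sit close to the listing limit, and the lowest listed values were 0.588 for BRG1 and 0.586 for BAF155.

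Each subunit was more enriched where the other was listed too. At H3K4me1-only regions the median BRG1 value was 1.02 with BAF155 and 0.953 without it, and the median BAF155 value was 0.945 with BRG1 and 0.838 without it. The same order held in the other 2 classes. The level of one subunit also went with the listing of the other. With BRG1 values at H3K4me1-only regions cut at their quartiles, from the lowest to the highest, BAF155 was listed at 14.2%, 18.5%, 20.4% and 25.1%. Over the quartiles of BAF155 values, in the same order, BRG1 was listed at 15.8%, 18.1%, 26.4% and 39.2%. The mean number of other factors rose as well, from 4.23 in the lowest to 6.47 in the highest part for BRG1 and from 4.39 to 6.87 for BAF155. Within regions with both, Spearman's rho of the 2 levels was 0.27, 0.36 and 0.42 in the 3 classes (1050, 3366 and 1151 regions), across regions that share the same libraries. In these regions rho with the number of other factors was much alike, at 0.27, 0.26 and 0.44 for BRG1 and 0.28, 0.37 and 0.45 for BAF155. Whether the 2 levels go together beyond the number of factors was not tested.

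The regions with the highest lower value of the pair are extremes, picked by the values given here (build mm9, 1-based, with no annotation of that build used here). Those with both H3K4 marks were 207 to 225 bp wide, against a median of 905.5 bp for regions with both subunits in that class. At chr6:83186972-83187196, which carries both H3K4 marks, BRG1 had 2.47 and BAF155 2.18, with H3K27ac at 2.49 and 10 of the 15 other factors. Similar values stood at chr10:128239064-128239272 (BRG1 2.29, BAF155 2.14, 12 other factors) and chr13:16192343-16192549 (2.12 and 2.26, 12 other factors). The leading H3K4me1-only regions were lower, at chr5:76228554-76228762 (BRG1 1.70, BAF155 1.87), chr17:28341758-28341966 (1.58 and 1.65, 13 other factors) and chr2:180027706-180028026 (1.60 and 1.58). All 3 were in the active enhancer list. With H3K4me3 only, chr1:4239814-4239994 had 2.11 for BRG1 and 2.19 for BAF155 with no H3K27ac listed, chr6:72736814-72739616 had 1.85 and 2.06 with H3K27ac at 3.61 and 14 other factors, and chr3:127598598-127599278 had 1.81 and 1.98.

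The H3K4me1-only regions with the highest value of 1 subunit listed 5 to 11 other factors. At chr12:88343885-88344169 BRG1 reached 2.40, its highest H3K4me1-only value, with 8 other factors and no BAF155 listed. A region on chromosome 18 had BRG1 at 2.00 with 7 other factors, and chr7:17144498-17144714 had 1.98 with 11. For BAF155 without BRG1 the highest H3K4me1-only values were 1.89 at chr3:69436571-69436803, 1.76 at chr13:43308217-43308445 and 1.70 at chr11:59052771-59053075, with 10, 5 and 10 other factors. Of these 6 regions, all but the one on chromosome 12 were in the poised list. Outside the H3K4me1-only class BRG1 alone reached 2.44 (H3K4me3 only) and BAF155 alone reached 2.29 (both marks).

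At the deposited limit BRG1 was listed mainly at narrow regions, and the listing of BAF155 leaned less that way. BRG1 shared this with other factors. Where they were listed at H3K4me1-only regions, the median width was 328 bp for BRG1, 312 bp for WSTF, 336 bp for PHF5A and 339 bp for BAZ1A. For BAF155 it was 471 bp. The level of both subunits fell with width there (rho -0.31 for BRG1 and -0.45 for BAF155). The median width of H3K4me1-only regions was 343 bp with both subunits, 325 bp with BRG1 alone, 574 bp with BAF155 alone and 604 bp with neither. From regions of at most 300 bp, through steps of 600, 1200 and 2400 bp, to those over 2400 bp, the share of H3K4me1-only regions with BRG1 was 19.7%, 16.7%, 10.8%, 5.21% and 2.00%. For BAF155 it was 11%, 10.4%, 10.3%, 8.74% and 9.07%. Over the same steps at regions with both marks, BRG1 was listed at 43.3%, 42.4%, 35.6%, 27.4% and 9.34%, while BAF155 was listed at 35.3%, 42.3%, 54.4%, 62.9% and 58.9%. By listing at the deposited limit, the 2 subunits thus ran in opposite directions with width at regions that carry both marks. Their levels did not, with rho of level and width there at -0.20 for BRG1 and -0.32 for BAF155. The median BAF155 value was 1.17 at regions of at most 300 bp and 0.896 at those over 2400 bp.

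Width classes differ in the number of other factors, so the shares were also read at a like number of them. Among H3K4me1-only regions with 9 or more other factors, BRG1 was listed at 48.4% of regions up to 300 bp and 12.6% of those over 2400 bp, and BAF155 at 32.5% and 45.9%. Among regions with no other factor, BRG1 was listed at 5.46% and 0.477% and BAF155 at 1.71% and 1.01%. The log2 ratio of the median widths of BRG1 alone over BAF155 alone was -0.82 at the deposited limit and -0.05 with a limit of log2 1 for both subunits. It was -0.09 when the listed subunit had to reach log2 1 and the other was not listed at all.

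**Figure D2:**
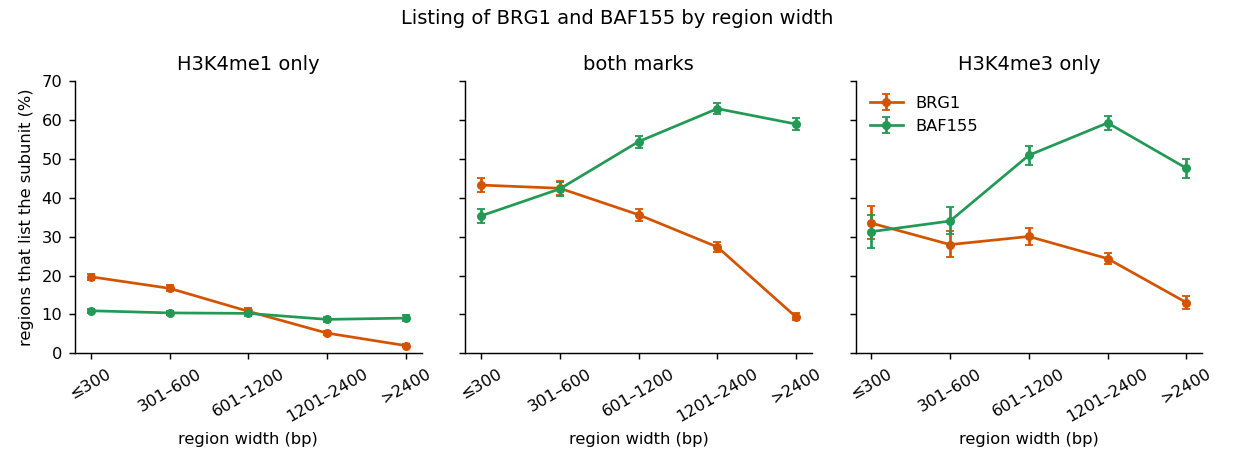
Percent of regions that list BRG1 or BAF155 (y axis, 95% Wilson intervals) by region width in bp (x axis) in the 3 H3K4 classes. BRG1 is listed at 19.7% of the narrowest and 2.00% of the widest H3K4me1-only regions, while BAF155 stays between 8.74% and 11% there and is listed at more of the wide than of the narrow regions in the other 2 classes.

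H3K27ac was listed more often where BAF155 was present. At H3K4me1-only regions it was listed at 76.1% of those with both subunits, 57.0% with BRG1 alone, 70.7% with BAF155 alone and 41.8% with neither. BRG1 alone was 13.7 points below BAF155 alone (a difference of -13.7, -15.9 to -11.6), with the same sign on 19 of 20 chromosomes. The difference was -5.09 points after standardising to width and -7.54 with a limit of log2 1. After standardising to the number of other factors it was -12.9 points.

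The subunits also differed along the acetylation scale. From regions without H3K27ac, through values under 1, 1 to 1.5 and 1.5 to 2, to 2 or more (log2 enrichment), BRG1 was listed at 9.41%, 13%, 18.2%, 18.8% and 17.5% of H3K4me1-only regions. BAF155 was listed at 5.26%, 8.88%, 14.9%, 21.8% and 33.3%. By listing at the deposited limit, BRG1 was the more frequent subunit up to a log2 of 1.5, and BAF155 above it. The levels did not follow this order. Where both the subunit and H3K27ac were listed, rho of the 2 values was 0.15 for BRG1 and 0.03 for BAF155. From regions without H3K27ac to the most acetylated, the median BRG1 value went from 0.948 to 1.04 and the median BAF155 value from 0.873 to 0.852. In the other classes H3K27ac was near its ceiling, at 93.7%, 84.9%, 92.8% and 82.4% of regions with both subunits, BRG1 alone, BAF155 alone and neither where both H3K4 marks were present.

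**Figure D3:**
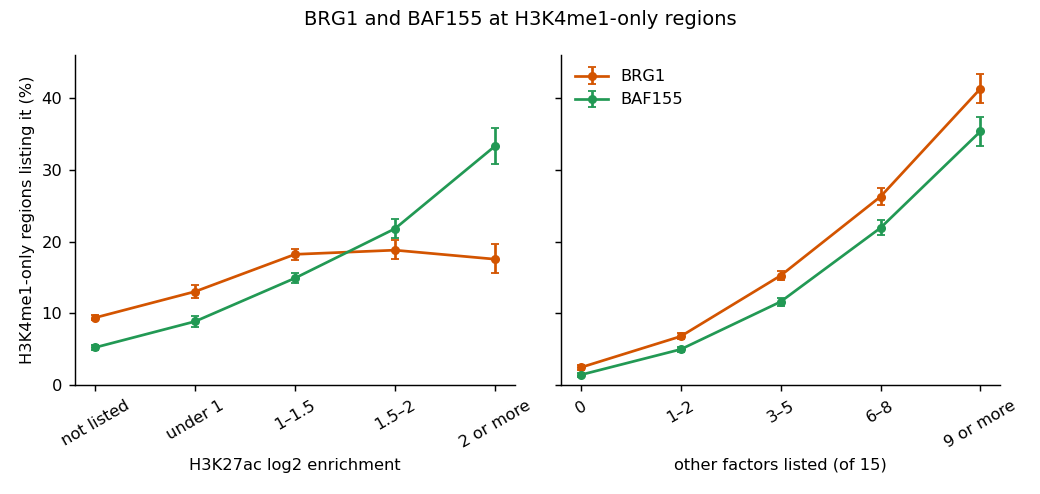
Percent of H3K4me1-only regions that list BRG1 or BAF155 (y axis, 95% Wilson intervals) by H3K27ac log2 enrichment (left) and by the number of the 15 other factors listed (right). BRG1 levels off at 17.5% and BAF155 reaches 33.3% at the most acetylated regions, while both run in parallel with the number of factors.

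The deposited lists of enhancers split H3K4me1-only regions at an H3K27ac log2 enrichment of 1, into 12492 active and 19567 poised ones. Each listed enhancer has at least 1 of 13 named factors. BRG1 is one of the 13 and BAF155 is not, so every H3K4me1-only region with BRG1 is in a list by construction, while 178 regions with BAF155 alone are in neither. Active enhancers had BRG1 in 20.2% of cases and BAF155 in 19.8%, and poised enhancers had BRG1 in 14.5% and BAF155 in 8.02%. The active minus poised difference was 5.72 points for BRG1 (4.87 to 6.59) and 11.8 points for BAF155 (11 to 12.6). With both subunits 64.2% of the H3K4me1-only regions were active, with BRG1 alone 42.9%, with BAF155 alone 56.7% and with neither 24.5%. Regions outside both lists lower the last 2 shares, and among listed enhancers 60.1% with BAF155 alone and 34.5% with neither were active. These shares are still not alike in entry, since BRG1 by itself places a region in a list and BAF155 does not. Among enhancers with another selecting factor, the active minus poised difference was 6.43 points for BRG1 and 11.8 points for BAF155. A limit of log2 1 brought the difference to 3.65 points for BRG1 and 3.37 points for BAF155.

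Regions with both subunits carried the most other factors. Of the 15 others, H3K4me1-only regions with both listed 6.94 on average, those with BRG1 alone 4.93, those with BAF155 alone 5.10 and those with neither 2.47. The share with BRG1 was 2.48% where no other factor was listed and 41.3% where 9 or more were, and for BAF155 it was 1.45% and 35.3%. At regions with both marks the averages were 10.9, 8.56, 9.21 and 6.32. Each of the 15 factors was most frequent in regions with both subunits, in all 3 classes. Factors went together in general, with a median phi over pairs of 0.17 at H3K4me1-only regions, 0.19 with both marks and 0.23 with H3K4me3 only. Regions that list another pair of factors were not compared, so this is not shown to be particular to BRG1 and BAF155.

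Between BRG1 alone and BAF155 alone the makeup of these partners differed by a few points. At H3K4me1-only regions 3 of the 15 factors were more frequent with BRG1 alone, 7 were more frequent with BAF155 alone, and for 5 the interval of the difference held 0. PHF5A was listed at 28.1% with BRG1 alone and 21.3% with BAF155 alone (6.75 points), BAZ1A at 31.4% and 25% (6.45 points), and WSTF, which pairs with SNF2H in an ISWI complex, at 12.2% and 9.18% (3.04 points). SMC3, the cohesin ring subunit that came next, stood at 35.9% and 34.7%, and its interval held 0. The PHF5A and BAZ1A differences changed sign with a limit of log2 1, to -1.40 and -1.45 points, and width standardisation brought them to 2.17 and 1.35 points. The WSTF difference was 1.38 points with that limit and 0.79 points with width standardisation.

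In the other direction SAP18 was listed at 34.6% with BRG1 alone and 42.2% with BAF155 alone, a difference of -7.56 points. SRSF2, a serine-arginine splicing factor, was listed at 54.2% and 60.9% (-6.69 points), MED1, a Mediator subunit, at 30.5% and 34.6% (-4.08 points), and SNF2H at 42.5% and 46.1% (-3.59 points). Chromosome 11 bore on MED1 and SNF2H, whose differences were -1.63 and -1.55 points without it. With a limit of log2 1 they were -8.87 and -10.6 points. Width standardisation brought SAP18 to -4.76 and SRSF2 to -4.56 points, while MED1 and SNF2H stood at -4.37 and -4.53 points. At regions with both marks the split was wider: BAZ1A was 20.1 points and PHF5A 14.1 points more frequent with BRG1 alone, while RUVBL2 differed by -16.2 and SAP18 by -15.1 points. After width standardisation BAZ1A and PHF5A differed by only 3.02 and 2.02 points there, and RUVBL2 and SAP18 by -7.85 and -5.11 points.

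**Figure D4:**
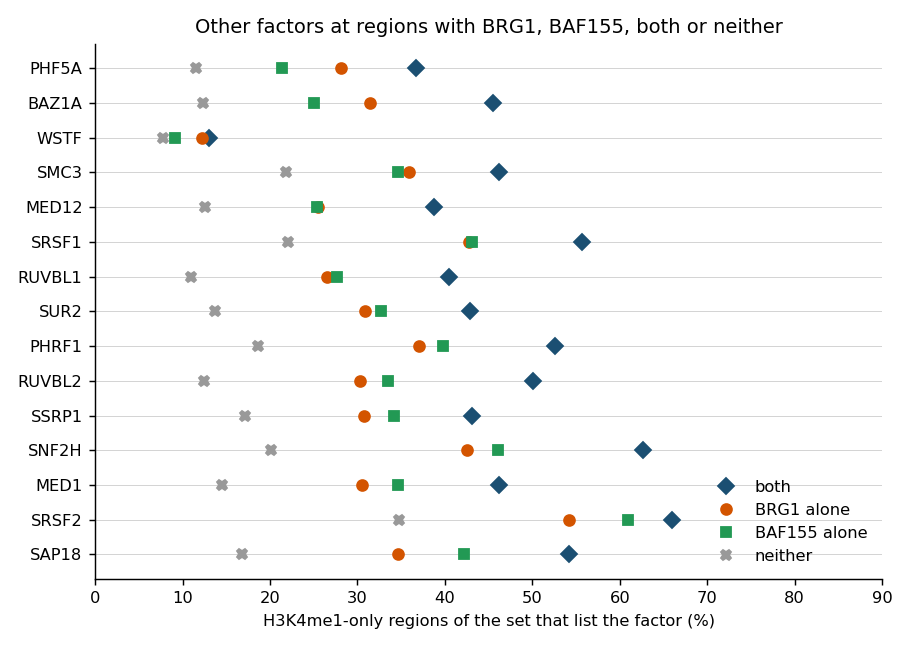
Percent of H3K4me1-only regions that list each of the 15 other factors (x axis), in regions with both subunits, BRG1 alone, BAF155 alone and neither. Factors run down the page from the largest difference in favour of BRG1 alone (PHF5A) to the largest in favour of BAF155 alone (SAP18), and regions with both subunits lie furthest right in each row.

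The regions were then matched to H3K4me1 peaks of the R1 cells to ask how the mark behaved there when MLL3/4 were catalytically dead. These are other ES cells, so the table shows the mark in R1 at sites where 129/Ola cells have BAF, and BRG1 libraries of the R1, knockout and floxed lines were not analysed here. At H3K4me1-only regions with both subunits the median fold enrichment of H3K4me1 was 1.87 in catalytic-dead and 3.20 in wild-type cells. With BRG1 alone it was 1.95 in catalytic-dead and 3.15 in wild-type cells, with BAF155 alone 1.99 and 3.35, and with neither 2.11 and 3.20. The median log2 ratios were -0.83 (705 regions with a peak), -0.74 (2628), -0.79 (2431) and -0.66 (23558).

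All 4 sets were lower in catalytic-dead cells, on each chromosome with values. A peak at least 2-fold lower was found at 42.8% of matched regions with both, 39.4% with BRG1 alone, 40.8% with BAF155 alone and 36.0% with neither, against 28.4% of all H3K4me1 peaks in the table. The middle 50% of regions overlapped widely between the sets, from -1.43 to -0.21 with both subunits and from -1.31 to -0.06 with neither. At peaks deposited as distal the medians were -0.86, -0.78, -0.85 and -0.71. Within width classes the order of the sets was not constant: between 600 and 1200 bp the medians were -0.90, -0.70, -0.84 and -0.76, and up to 300 bp they were -0.73, -0.77, -0.74 and -0.57. BRG1 alone lay above neither at each width over 600 bp, and below BAF155 alone at proximal peaks (-0.32 and -0.30) and in the poised list (-0.74 and -0.68). The 2 subunits alone differed by 0.05 on the log2 scale, less than the spread of that difference over chromosomes, and neither subunit's level went with the size of the change (rho 0.00 for BRG1 and -0.03 for BAF155 across regions).

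At regions that carry H3K4me3 the sign was the opposite. With both marks, H3K4me1 had a median log2 ratio of 0.72 with both subunits, 0.36 with BRG1 alone, 0.59 with BAF155 alone and 0.46 with neither. At least 2-fold higher peaks made up 27.7%, 17%, 20.5% and 16.8% of matched regions, against 15.2% of all H3K4me1 peaks. Peaks deposited as proximal made up 52.9%, 33.2%, 53.2% and 40.6% of the matched ones, so regions with BRG1 alone had both the lowest ratio and the smallest share of proximal peaks, whose part in the ratio was not tested. With H3K4me3 only, the 4 medians lay between 1.06 and 1.10 and did not separate the sets. H3K4me2 at H3K4me1-only regions had medians of -0.84, -0.77, -0.89 and -0.81, and at least 2-fold lower H3K4me2 peaks made up 46.1%, 41.4%, 45.0% and 42.5% of matched regions, against 23% of all H3K4me2 peaks. The sets with BAF155 had the lower medians of H3K4me2, but regions with neither lay below those with BRG1 alone.

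**Figure D5:**
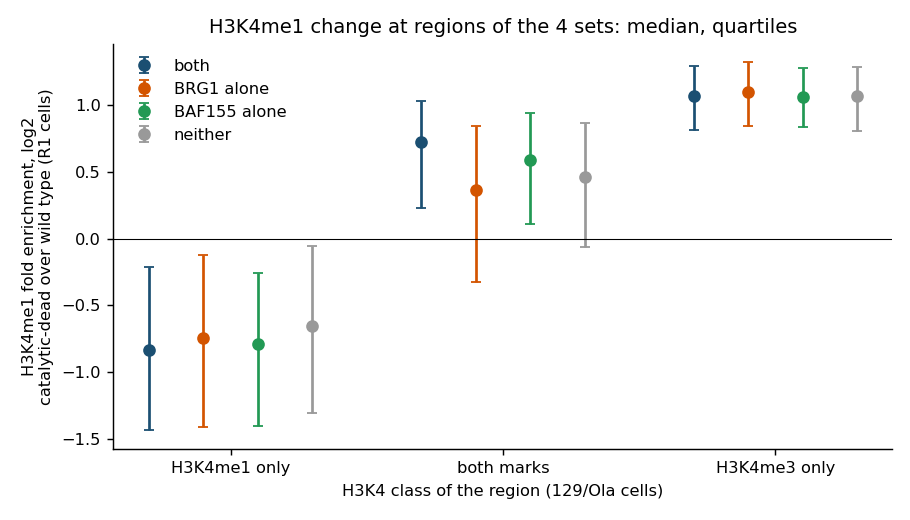
Log2 ratio of H3K4me1 fold enrichment in catalytic-dead over wild-type R1 cells (y axis, points are medians over matched regions and bars the quartiles) by H3K4 class in 129/Ola cells (x axis) and set. At H3K4me1-only regions the 4 medians lie between -0.83 and -0.66, and at H3K4me3-only regions between 1.06 and 1.10.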

How the data were processed

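ChIP-seq tables of mouse ES cells were analysed. Per the submitters' processing notes the build was mm9, with Bowtie, Picard and MACS2 named for the 129/Ola libraries. For R1 they name MACS2 2.1.0.20150731, BWA 0.7.13-r1126 and Picard 2.11.0. The authors deposited region tables with 1 log2 enrichment per listed factor, and R1 peak tables with a fold enrichment (ratio) per line and a class of change. The class was called by size, at 2-fold. How libraries were pooled and normalized is not given in the sources used here.

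Of 31 names in the region table, 20 matched 129/Ola libraries in the labels and were used, and 11 were not. The members and lists were chosen with earlier results of these data known. The R1 peak scores of each mark run through the chromosomes in number order and the positions in text order. They were put back in step: for H3K4me1 the rank correlation of peak width and enrichment was 0.215 on chromosome 1, and on chromosomes 2 to 19 it averaged 0.253 restored and 0.00253 as deposited. For H3K4me2 it averaged 0.675 restored and 0.00546 as deposited. Regions and peaks were matched at 1 bp of overlap, taking the peak with the most overlap, and log2 ratios had no pseudocount. Where a line had no enrichment at a peak, its value was set to the lowest of its other values divided by 2. Shares were standardised over 5 width classes. Named factors were the 4 with the largest and the 4 with the smallest difference between BRG1 alone and BAF155 alone, and named regions the 3 highest per set and class. Scripts were tested on simulated data and ran in Python 3.11.15 with pandas 2.3.3, numpy 2.4.6 and scipy 1.17.1. No region sequences or gene names are given, since no mm9 genome was used here.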

Additional observations from a re-analysis of the deposited data

How the results depend on the processing

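Of 46 recomputed values of the main results, 23 stayed within the spread of the reported value. That spread was the 95% counting interval, or 1 SD over chromosomes for widths, factor numbers and H3K4me1 changes. No difference whose spread left out 0 changed direction. The overlap shares have no direction, and the spread of the differences in factor numbers and H3K4me1 change held 0. These values could therefore not count as reversed. With a limit of log2 1 for both subunits, the share of BRG1 regions with BAF155 was 37.6%, that of BAF155 regions with BRG1 32.4%, and the H3K4me1-only difference 31.6 points. There the H3K27ac difference was -7.54 points, the difference in other factors -0.67, the log2 width ratio -0.054, and the active minus poised difference 3.65 points for BRG1 and 3.37 points for BAF155. Standardising to width gave 49.1%, 33.8%, 19 points, an H3K27ac difference of -5.09 points and 9.24 points for BRG1 in active minus poised enhancers. Settings chosen after seeing the data were a merge of same-class regions within 5 kb, a run without chromosome 11, enhancers with another selecting factor, width-standardised R1 medians, partner ranks at log2 1, and a limit of log2 1 for the listed subunit with the other not listed at any value. The last gave 38.5 points for H3K4me1 only, -7.28 points for H3K27ac, -0.69 other factors and a log2 width ratio of -0.095. The merge gave 48.8%, 36.3%, -11.1 points for H3K27ac, and 11.2 and 16.5 points for active minus poised. Without chromosome 11, 32.6% of BAF155 regions had BRG1. Merging within 1 kb gave no value, since no 2 regions lie that close. Among the 15 single factors, 3 differences whose interval left out 0 changed sign. They were PHF5A (-1.40 points) and BAZ1A (-1.45 points) with the log2 1 limit (-0.0069 and -0.23 points where the other subunit was not listed), and SSRP1 (0.19 points) with width standardisation. The differences of MED12 and SMC3, whose intervals held 0, also changed sign with the log2 1 limit, to -4.63 and -1.63 points. The cause was not tested. In the deposited layout of the R1 table the BRG1 alone minus BAF155 alone change in H3K4me1 was -0.02, against 0.05. No paired analysis was possible because the tables give 1 value per factor and no values per library. Depth cannot be told from these tables, so a factor not listed may be one not detected.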

Other observations

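Chromosome 11 listed many factors more often than the other autosomes, BAF155 among them, and BRG1 was an exception. Over all classes 12 of the 17 factors were highest there of all autosomes. BAF155 was listed at 37.6% of the regions of chromosome 11 and at 20.9% to 30.8% of those of the other autosomes. BRG1 was listed at 17.8% there and at 17.1% to 20.8% elsewhere. In 2 classes BRG1 was lowest on chromosome 11 of all autosomes, with 25.3% against 28.6% to 34.7% at regions with both marks and 16.4% against 24.2% on the median autosome with H3K4me3 only. BAZ1A was also lowest there in these 2 classes, at 30.5% and 15.4%. Within H3K4me1-only regions BAF155 had 15.0% on chromosome 11 and 7.28% to 12.6% on the others, and with H3K4me3 only it had 71.6% and 42.7% to 58.2%. The highest shares on chromosome 11 over all classes were those of SRSF2 (78.0%), SNF2H (68.6%) and MED1 (60.1%). On the X chromosome BRG1 was listed at 51.9% of the 156 regions with both marks, against 25.3% to 34.7% on the autosomes. Other factors were high there too, among them BAZ1A (59.0% against 30.5% to 46.9%) and WSTF (19.2% against 8.22% to 14.4%).

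BAF155 regions also sat next to each other more often than BRG1 regions did. Within 5 kb, the next region listed BAF155 after 33.0% of regions with BAF155 and 20.6% of those without it. The next region listed BRG1 after 19.4% of regions with BRG1 and 15.5% of those without it.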
